A study of Mus musculus with 24 samples.

Results

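The variable (Trav) and joining (Traj) segments of the T cell receptor alpha chain were read in RNA from sorted T cells of mice whose alpha chain gene was disrupted. Members were all rows of the deposited count table whose symbol starts with Trav or Traj. There were 188 of them among 55025 rows, 128 Trav and 60 Traj segments, chosen by name and not by any measured value. All 188 lie on the plus strand of chromosome 14 in the GENCODE M21 annotation of GRCm38 (Trav from 52427928, Traj to 54218842). The annotation marks 20 Trav and 9 Traj as pseudogenes.

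The series holds 24 libraries in 8 groups of 3. Each was made from CD45+CD4+ or CD45+CD8+ cells sorted out of the tumor or the spleen, so the groups are tumor CD4 LCL161, tumor CD4 vehicle, tumor CD8 LCL161, tumor CD8 vehicle, spleen CD4 LCL161, spleen CD4 vehicle, spleen CD8 LCL161 and spleen CD8 vehicle. Every mouse was TCR alpha-/- and carried a pancreatic tumor grown in the pancreas from M8 live passage organoids, so the controls share the deletion, and no alpha-sufficient group is in the series. LCL161, a SMAC mimetic that drives the ubiquitin ligases cIAP1 and cIAP2 to degradation, was given by mouth at 75 mg/kg on 3 occasions from day 4 at intervals of 3 days, and the animals were killed on day 12. The age and strain of the mice, the deleted part of the alpha chain gene and the composition of the vehicle are not stated in the labels. Nor do they say whether each replicate is its own mouse. P-values therefore measure the spread between these samples, which may be technical.

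An alpha chain is built in the thymus when the recombinase joins one of many Trav segments to one of many Traj segments and the intervening DNA is lost. Splicing then links the joined segments to the constant exons of Trac, so a Traj segment is found in spliced RNA mainly after rearrangement, while an unrearranged Trav segment can be transcribed by itself. The delta chain locus lies inside the alpha locus, between Trav and Traj. Some Trav segments, marked dv in their symbols, can join delta segments as well and serve in gamma delta T cells. Mice lacking the alpha constant region have no conventional alpha beta T cells but keep gamma delta T cells and a small CD4 population with a beta chain. Parts of the Trav array have been duplicated in the mouse, and the copies carry a d or an n in their symbols (Trav7-4, Trav7d-4, Trav7n-4).

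The joining segments shown first are those that held the largest share of Traj counts in at least 1 CD4 library. Traj47, which led none by counts, is not printed. Capitals mark the motif searched, TTNGG (N is any base) followed by any 4 bases and GG, on the coding strand only. It was drawn from the codons of the phenylalanine-glycine-any-glycine turn common to joining segments. The search ignored the reading frame and N allows other residues, so a match need not encode that turn. These letters were found in 46 of the 60 Traj sequences and in 44 of the 51 not annotated as pseudogenes, and Traj33 is among those without them. Sequences are the GENCODE M21 transcripts on GRCm38.
Traj42, chr14:54175773-54175836: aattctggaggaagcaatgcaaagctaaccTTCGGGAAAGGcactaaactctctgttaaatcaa
Traj40, chr14:54177921-54177981: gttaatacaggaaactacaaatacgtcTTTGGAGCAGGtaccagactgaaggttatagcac
Traj43, chr14:54174742-54174798: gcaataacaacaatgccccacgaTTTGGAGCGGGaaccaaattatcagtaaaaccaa
Traj31, chr14:54187895-54187951: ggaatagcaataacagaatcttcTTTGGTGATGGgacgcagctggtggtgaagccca
Traj30, chr14:54189866-54189924: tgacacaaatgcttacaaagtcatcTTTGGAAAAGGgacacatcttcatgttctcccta
Traj32, chr14:54186101-54186166: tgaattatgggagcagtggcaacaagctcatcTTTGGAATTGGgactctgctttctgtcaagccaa
Traj21, chr14:54198790-54198846: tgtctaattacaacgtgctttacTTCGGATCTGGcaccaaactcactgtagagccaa
Traj33, chr14:54185358-54185414: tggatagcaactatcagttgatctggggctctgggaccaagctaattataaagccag

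The Trav segments below are shown because the comparison of CD4 with CD8 libraries is described mainly through them. Other segments called between these libraries are not printed. The last 90 coding bases of each are given, up to the end where joining takes place, and a capital marks a base that differs from the first copy of the set. Trav7d-4 was identical to Trav7-4 over this stretch, and Trav15d-2-dv6d-2 and Trav15n-2 were identical to Trav15-2-dv6-2.
Trav7-4, chr14:53461649-53461738: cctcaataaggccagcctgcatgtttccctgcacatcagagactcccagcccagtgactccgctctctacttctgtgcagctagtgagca
Trav7n-4, chr14:53091786-53091875: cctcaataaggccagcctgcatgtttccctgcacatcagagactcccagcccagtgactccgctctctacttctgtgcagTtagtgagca
Trav15-2-dv6-2, chr14:53649905-53649994: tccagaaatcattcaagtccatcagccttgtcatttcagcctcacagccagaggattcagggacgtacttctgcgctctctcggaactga
Trav17, chr14:53807026-53807115: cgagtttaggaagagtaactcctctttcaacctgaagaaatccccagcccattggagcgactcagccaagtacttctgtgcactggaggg
Trav21-dv12, chr14:53876663-53876752: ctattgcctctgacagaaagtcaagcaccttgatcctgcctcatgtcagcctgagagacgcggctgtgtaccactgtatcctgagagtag

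Such copies set a limit on what a count per segment means. When the d and n letters are ignored, the 128 Trav fall into 57 copy sets, 40 of which have more than 1 member. Over the 83 pairs of copies the median identity of the coding bases was 98.25%, the lowest was 93.45%, and 20 pairs were identical. In the 8 libraries with at least 100 counts in the Trav7-4 set, Trav7-4 held a median of 63.5% of the set, Trav7d-4 27.5% and Trav7n-4 8.93%. Trav9d-3 and Trav9n-3, identical in their coding bases, held 50.4% and 49.6% in each of the 3 libraries deep enough. No source used here says how reads shared by copies were divided. Copies are treated below as sets wherever shares are given, and calls of several copies of 1 set are not separate results.

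Library totals ran from 15455700 to 25145400 counts. Cd4 stood at 688 to 1430 CPM (counts scaled by library size) in CD4 libraries and 7.07 to 31.7 CPM in CD8 libraries, Cd8a at 0.0549 to 3.98 CPM in CD4 and 565 to 1159 CPM in CD8 libraries, and Cd3e at 707 to 1568 CPM in CD4 and 514 to 1163 CPM in CD8 libraries. Trdc, which encodes the delta constant region, had 7.99 to 571 CPM in CD4 and 567 to 1667 CPM in CD8 libraries. Of the CD4 libraries, tumor vehicle replicate 1 (544 CPM Trdc, 63.2 CPM Trac) and spleen vehicle replicate 3 (571 CPM Trdc, 119 CPM Trac) stood apart from the other 10, in which Trdc was at most 279 CPM and Trac at least 293 CPM. The recombinase genes Rag1 and Rag2 were at most 0.193 and 0.521 CPM in any library. RNA of other cells was present in the sorted libraries. B cell markers summed to 62.0 to 683 CPM over the tumor CD4 libraries and 3299 to 5689 CPM over the spleen CD4 libraries. Macrophage and monocyte markers summed to 736 to 6134 CPM over the tumor CD4 libraries and 205 to 880 CPM over the spleen CD4 libraries.

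Trav and Traj counts were present in both sorted populations but differed in make-up. A Trav count does not by itself show an alpha chain transcript, since dv segments can also serve the delta chain. Trav segments summed to 209 to 893 CPM in the 12 CD4 libraries and 81.6 to 364 CPM in the 12 CD8 libraries. Traj segments summed to 5.18 to 120 CPM in CD4 libraries and 0.022 to 0.98 CPM in CD8 libraries, so the lowest CD4 library lay above the highest CD8 library. The 12 CD4 libraries together held 14163.5 Traj counts and 106158 Trav counts, and the 12 CD8 libraries 71.5 Traj counts and 43005 Trav counts. Of the 60 Traj segments, 55 reached 1 count after rounding in some CD4 library and 15 did so in some CD8 library. Of the 128 Trav segments, 12 had such a count in every CD4 library and 45 in every CD8 library. In bulk RNA, fewer cells of a type and less RNA per cell cannot be told apart.

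Per library, the Traj sum was 79.9, 58.8 and 43.7 CPM in tumor CD4 LCL161 and 5.18, 48.1 and 64 CPM in tumor CD4 vehicle. It was 120, 84.4 and 43 CPM in spleen CD4 LCL161 and 33.1, 58.3 and 15 CPM in spleen CD4 vehicle. The LCL161 and vehicle libraries overlapped in both tissues. In the CD8 libraries it was 0.209, 0.98 and 0.505 CPM in tumor LCL161, 0.357, 0.0814 and 0.262 CPM in tumor vehicle, 0.193, 0.411 and 0.491 CPM in spleen LCL161 and 0.179, 0.022 and 0.097 CPM in spleen vehicle. Those levels rest on 0.5 to 15 counts a library.

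**Figure D1:**
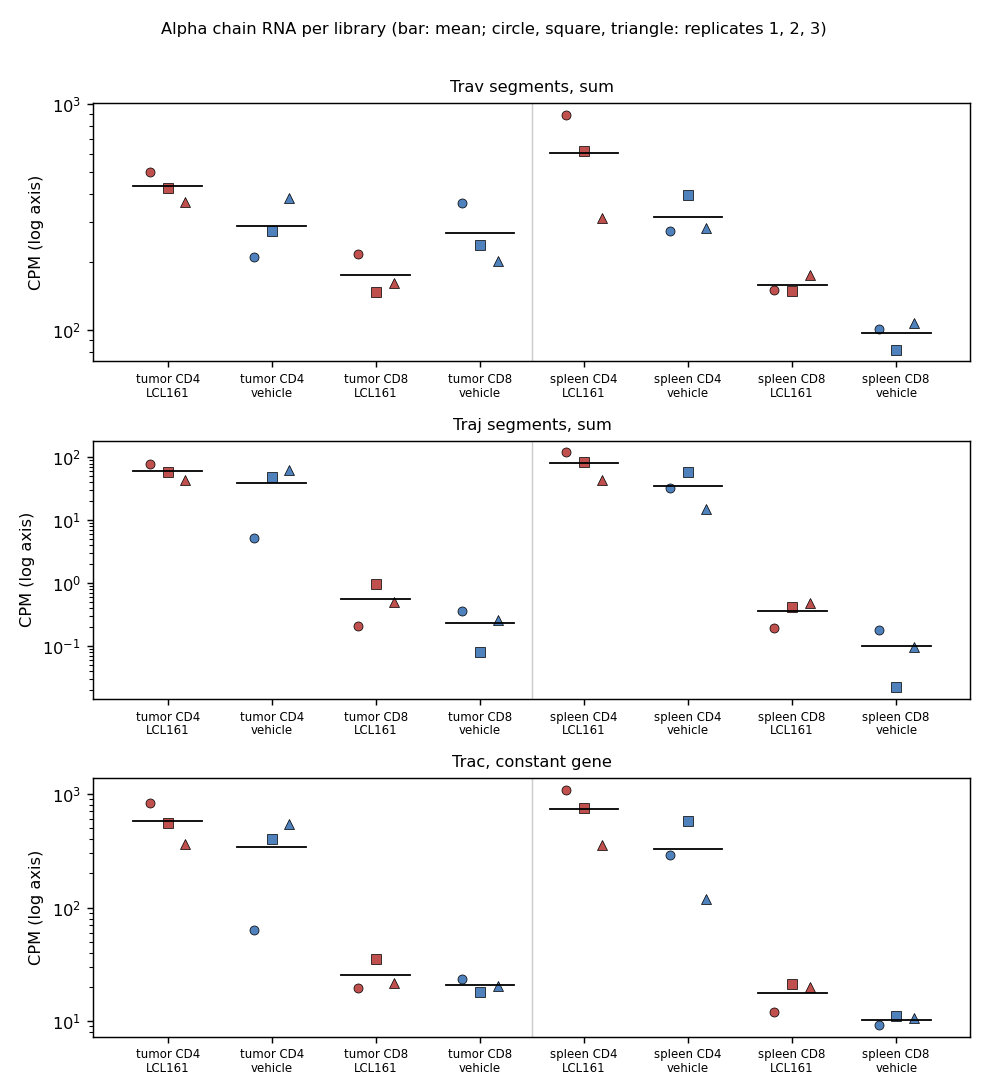
Summed CPM of Trav segments, of Traj segments and of Trac in each library, on log axes; circles, squares and triangles are replicates 1, 2 and 3, black bars are group means, red is LCL161 and blue is vehicle. All 12 CD4 libraries lie above all 12 CD8 libraries for Traj (5.18 to 120 CPM against 0.022 to 0.98 CPM) and for Trac (63.2 to 1082 CPM against 9.3 to 35.5 CPM), while Trav overlaps (209 to 893 CPM against 81.6 to 364 CPM).

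Trac, the constant gene that spliced alpha transcripts carry, stood at 63.2 to 1082 CPM in CD4 libraries and 9.3 to 35.5 CPM in CD8 libraries. It was higher in CD4 in all 4 comparisons of the sorted populations. Its log2 fold changes (CD4 over CD8) were 4.50 ± 0.68 (SE) in tumor LCL161 (edgeR adjusted p = 0.00145), 4.03 ± 0.66 in tumor vehicle (edgeR adjusted p = 0.00198), 5.36 ± 0.70 in spleen LCL161 (edgeR adjusted p = 6.49e-05) and 4.99 ± 0.70 in spleen vehicle (edgeR adjusted p = 0.000156). Measured per 100 Trac counts, Traj counts numbered 8.2 to 12.6 in the CD4 libraries and 0.199 to 2.76 in the CD8 libraries. Per 100 Trav counts there were 2.48 to 17.5 Traj counts in CD4 libraries and 0.027 to 0.668 in CD8 libraries.

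The CD8 libraries drew most of their Trav counts from segments that the delta chain can also use. Of the Trav counts of the CD4 libraries, copy sets with at least 1 dv symbol (8 sets, 22 segments) held 33.8, 40.7 and 9.73% in tumor LCL161, 77.8, 10.6 and 13.2% in tumor vehicle, 4.27, 47.4 and 5.89% in spleen LCL161 and 15.1, 11.4 and 22.7% in spleen vehicle. They held 76.2 to 85.6% in each CD8 library. The 10 segments with dv in their own symbol held 54.9 to 64.0% in CD8 and 1.18 to 59.8% in CD4 libraries. Tumor CD4 vehicle replicate 1, the library with the least Trac, was the only CD4 library within the range of the CD8 libraries. Expressed as CPM, these dv copy sets stood at 18.4 to 292 CPM in CD4 and 64.3 to 277 CPM in CD8 libraries, and all other Trav sets at 46.2 to 855 CPM in CD4 and 17.3 to 86.7 CPM in CD8 libraries.

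**Figure D2:**
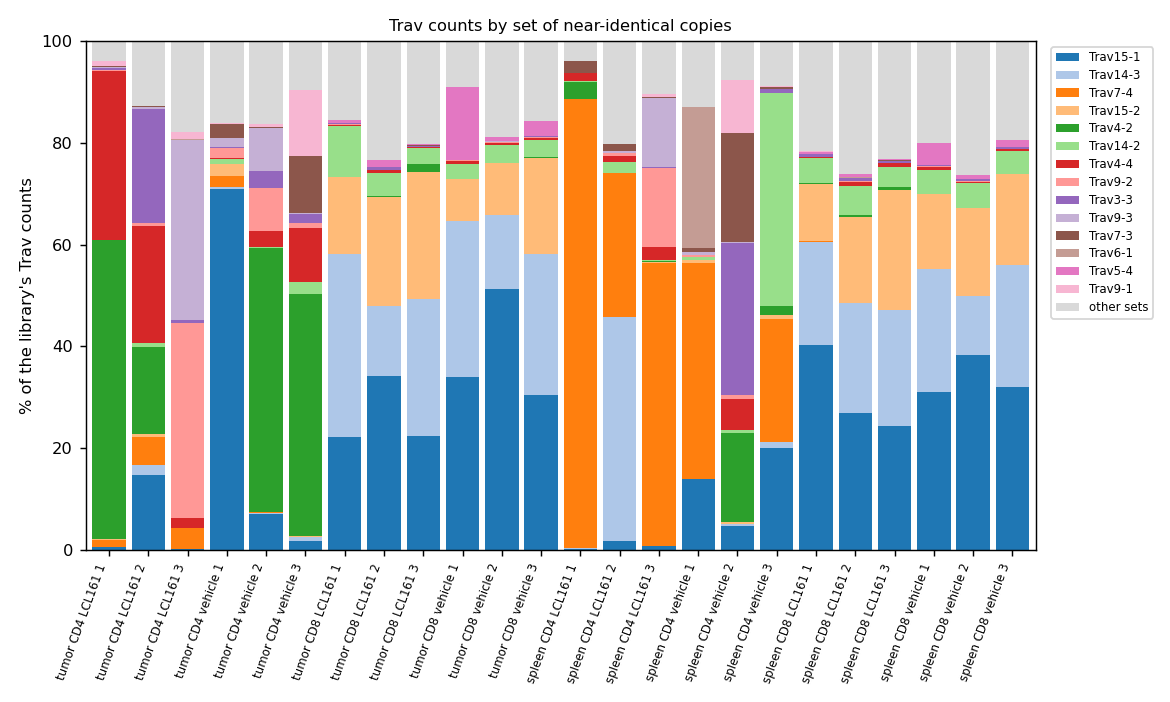
Share of each library's Trav counts (%) by set of near-identical copies; the 14 sets that reached the highest share in any library are coloured and all others are grey. The CD8 bars resemble one another, with Trav15-1, Trav14-3 and Trav15-2 at the base, whereas the leading set differs among the CD4 bars.

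The Trav15-1 set (segments also named dv6 for the delta chain) led 10 of the 12 CD8 libraries and Trav14-3 the other two. By the share of Trav composition held in common (the sum over sets of the smaller of the 2 shares), pairs of CD4 libraries overlapped by 3.23 to 63.8%, with a median of 11.5% over 66 pairs. Pairs of CD8 libraries overlapped by 60.8 to 93.7%, with a median of 80.2% over 66 pairs. Across the sorted populations the median overlap was 9.92% over 144 pairs. These are descriptions of the libraries, with no test.

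In the CD4 libraries a few joining segments held most of the counts, and the leader often differed between replicates. It was Traj21 (59.6% of the library's Traj counts, 95% Wilson interval 57.2 to 61.8%), Traj32 (31%, 28.3 to 33.9%) and Traj31 (73.1%, 70.1 to 75.8%) in tumor LCL161 replicates 1, 2 and 3. In tumor vehicle replicates 1, 2 and 3 it was Traj21 (23.1%, 16.4 to 32.2%, of 107.3 counts in all), Traj33 (62.8%, 59.7 to 65.8%) and Traj30 (57.1%, 54.7 to 59.6%). No segment led more than 1 library within a tumor group. In tumor LCL161 replicate 2, Traj47 held 30.5%, inside the interval of Traj32, and led when counts were divided by segment length.
In spleen LCL161 replicates 1, 2 and 3 the leader was Traj42 (88.6%, 87.3 to 89.7%), Traj40 (60.1%, 58 to 62.2%) and Traj42 (45.1%, 42.1 to 48.3%). In spleen vehicle replicates 1, 2 and 3 it was Traj42 (45.9%, 42.2 to 49.6%), Traj43 (35.9%, 33.2 to 38.6%) and Traj42 (79%, 73.8 to 83.2%). Intervals cover counting error only, and the labels name no molecular identifiers.

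Across the 12 CD4 libraries there were 8 different leading Traj segments, and 15 of the 60 exceeded 10% of Traj counts somewhere. Of these 15, 9 did so in 1 library alone. Traj42 did so in 6 libraries, 5 from the spleen and 1 from the tumor. Traj47 did so in 4 libraries. It held 32% and 30.5% in tumor LCL161 replicates 1 and 2, 13.7% in tumor vehicle replicate 3 and 15.5% in spleen vehicle replicate 2. Dividing counts by segment length left the leading Traj in 11 of 12 libraries and the leading Trav set in 12 of 12. The 31 segments numbered 31 or higher, which lie nearer to the Trav array, held 35.3, 89.8 and 82.1% of Traj counts in tumor LCL161, 58.7, 94.1 and 37.5% in tumor vehicle, 93.3, 90.4 and 88.3% in spleen LCL161 and 89.4, 74.1 and 88.7% in spleen vehicle.

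**Figure D3:**
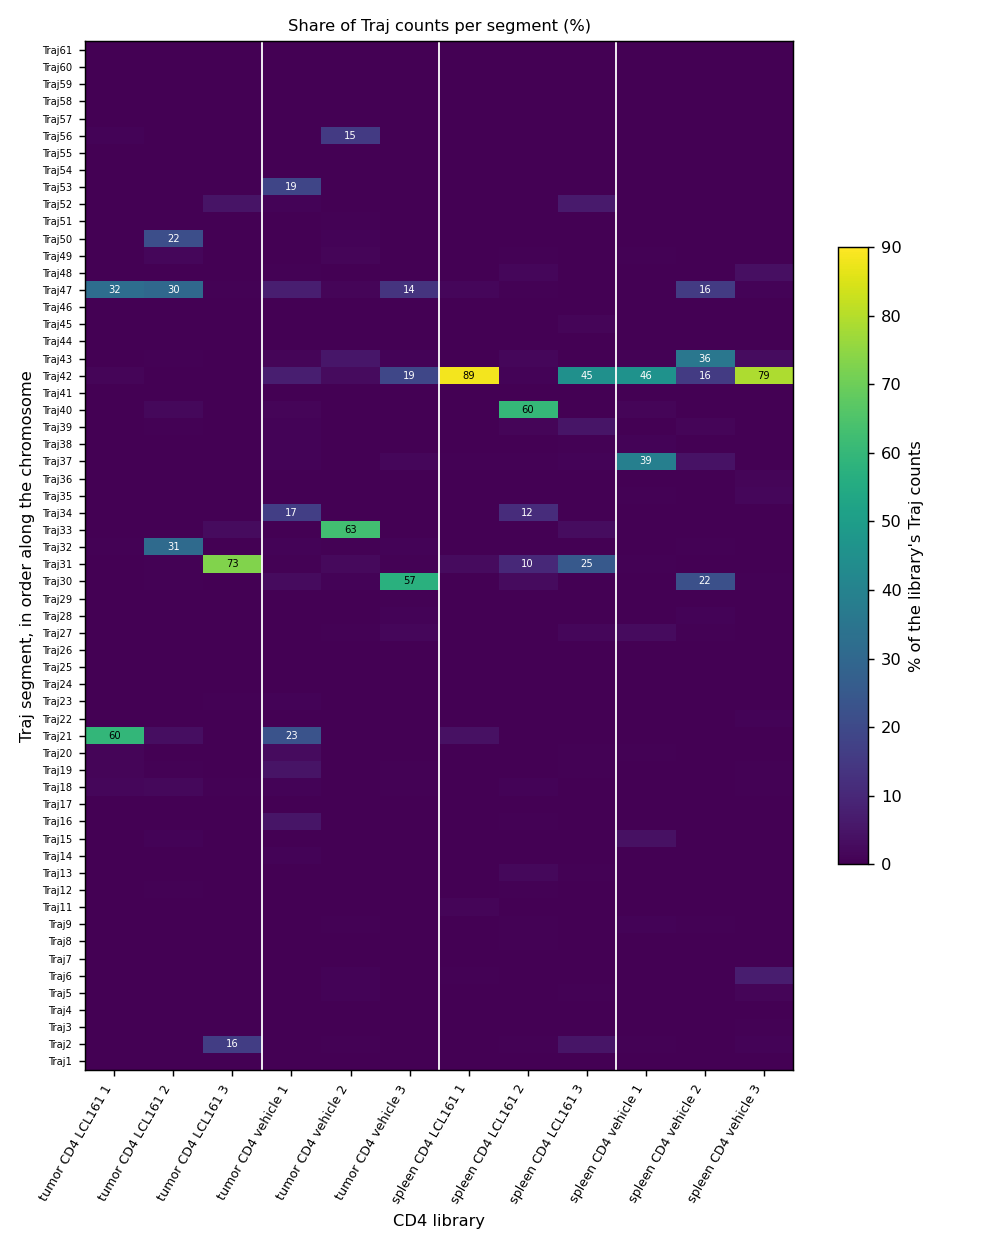
Share of each CD4 library's Traj counts (%) held by each Traj segment, with segments in their order along the chromosome from the Trav side (top) to the Trac side (bottom); shares above 10% are printed. Most of a column lies in 1 to 3 rows, and Traj42 is the one row that is bright in several spleen columns.

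Leading Trav sets also differed between libraries. Trav4-2 (58.9%), Trav4-4 (23.1%) and Trav9-2 (38.3%) led tumor LCL161 replicates 1, 2 and 3, and Trav15-1 (71.05%), Trav4-2 (51.9%) and Trav4-2 (47.8%) led tumor vehicle replicates 1, 2 and 3. In the spleen, Trav7-4 (88.5%), Trav14-3 (44.1%) and Trav7-4 (55.7%) led LCL161 replicates 1, 2 and 3, and Trav7-4 (42.4%), Trav3-3 (29.9%) and Trav14-2 (41.9%) led vehicle replicates 1, 2 and 3. Thinned to 1800 Trav counts, a CD4 library held 16.6 to 30.5 Trav sets and a CD8 library 23.2 to 31.6. Thinned to 100 Traj counts, a CD4 library held 6.01 to 18.4 Traj segments.

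Some pairs of CD4 libraries shared their composition. Spleen LCL161 replicate 1 and spleen vehicle replicate 3 had 80.6% of their Traj composition in common, mostly through Traj42. Their leading Trav sets differed. Trav7-4 held 88.5% in the LCL161 library and 24.1% in the vehicle library, and Trav14-2 held 0.198% and 41.9%. Between tissues, tumor vehicle replicate 3 and spleen vehicle replicate 2 shared 57.7% of Traj composition, with Traj30 at 57.1% in the tumor library and 22% in the spleen library, and 56.8% of Trav composition. Tumor LCL161 replicate 3 and spleen LCL161 replicate 3 shared 39.2% of Traj composition, with Traj31 at 73.1% in the tumor library and 25% in the spleen library, and 42.9% of Trav composition. The other 16 pairs of tumor and spleen libraries of the same treatment shared 3.73 to 24.7% of Traj composition. Whether any tumor and spleen library came from the same animal is not stated in the labels.

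**Figure D4:**
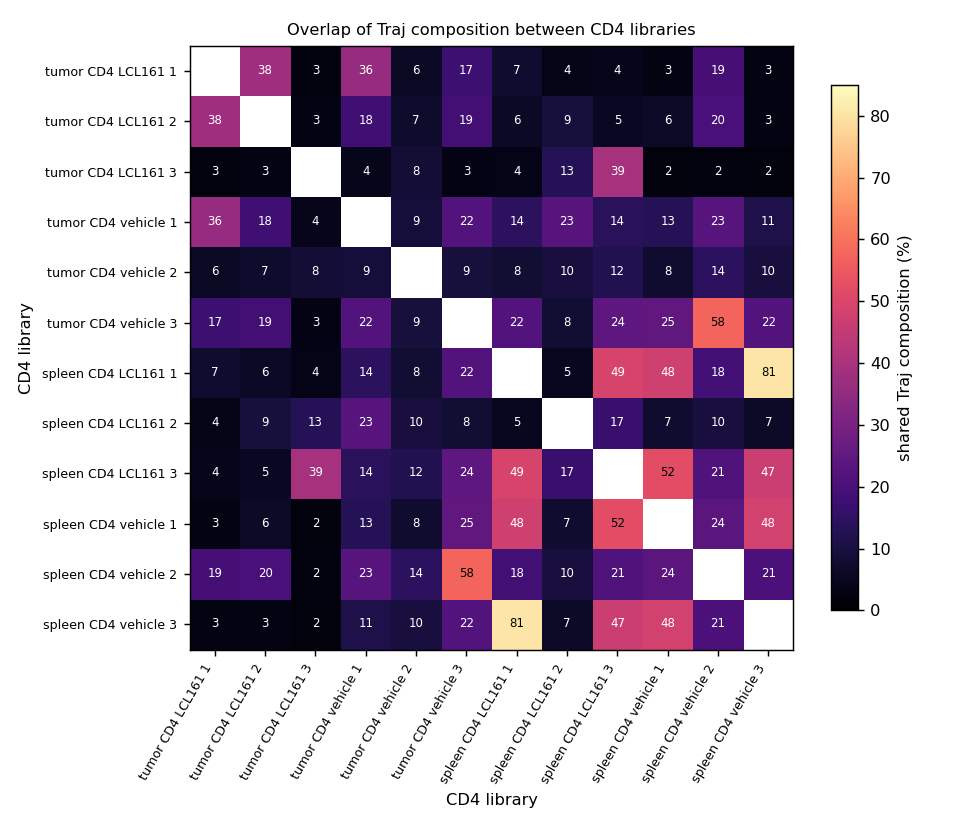
Traj composition in common (%) between each pair of CD4 libraries, the sum over segments of the smaller of the 2 shares; the diagonal is left blank. The brightest cells are spleen LCL161 1 with spleen vehicle 3 (80.6%) and tumor vehicle 3 with spleen vehicle 2 (57.7%), and most cells between tissues are under 25%.

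The segments of 2 invariant receptors were read in the same way. Mucosal-associated invariant T cells, which recognise vitamin B metabolites on MR1, join Trav1 to Traj33. In tumor CD4 vehicle replicate 2, Traj33 had 594.5 counts (30.2 CPM) and Trav1 had 363 counts (18.4 CPM). In the other 11 CD4 libraries, Traj33 had at most 30 counts and Trav1 at most 4. Counts per segment do not show whether the 2 were joined in 1 transcript. Invariant natural killer T cells, which recognise lipids on CD1d, join Trav11 to Traj18. Trav11 and Trav11d each rounded to 0 counts in all 24 libraries. As a set they had 0.055 CPM in tumor CD4 LCL161 replicate 2 and 0 CPM in the other libraries. These levels lie under the floor of 3 counts, which is 0.12 to 0.196 CPM depending on the library. Traj18 had 28, 20 and 4 counts in tumor CD4 LCL161, 1, 2 and 6 in tumor CD4 vehicle, 1, 15.5 and 0 in spleen CD4 LCL161 and 1, 2 and 1 in spleen CD4 vehicle.

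Segments were then tested one by one with edgeR's quasi-likelihood test over all 20174 genes that passed the filter on low counts, with p-values adjusted by Benjamini and Hochberg within each comparison and a threshold of 0.05. Of the 188 members, 180 had a count somewhere and 79 passed the filter (67 Trav, 12 Traj). The other 109 were not tested. A segment that is high in 1 group can pass the filter through that group alone, so the counts below describe the tested segments and not the family.

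To ask which sorted population carries which segments, CD4 libraries were compared with CD8 libraries in each tissue and treatment. Segments went both ways. The Trav15-2 copies and Trav17 were lower in CD4 in all 4 comparisons, and Trav21-dv12 in 3 of them. In the spleen, the Trav7-4 set and Traj42 were higher in CD4 under both treatments. In tumor LCL161, 4 segments were higher and 4 lower in CD4, where 2.87% of all tested genes were called (1.44% higher, 1.43% lower). In tumor vehicle 0 were higher and 9 lower, where 4.07% of all genes were called (2.37% higher, 1.7% lower). In spleen LCL161, 9 were higher and 9 lower, where 17.4% of all genes were called (9.48% higher, 7.95% lower). In spleen vehicle 8 were higher and 8 lower, where 11.4% of all genes were called (6.09% higher, 5.32% lower). The segments called lower belong to 2, 5, 6 and 5 copy sets in these 4 comparisons, and those called higher in tumor LCL161, spleen LCL161 and spleen vehicle to 2, 4 and 5 copy sets. No median fold change is given over the tested segments. The 12 tested Traj passed the filter through the CD4 libraries. Trav segments near 0 in the CD8 libraries did so as well, such as the Trav7-4 set (at most 0.133 CPM in any CD8 library). In the order tumor LCL161, tumor vehicle, spleen LCL161 and spleen vehicle, DESeq2 called 24, 31, 28 and 31 segments. Limma voom called 4, 3, 10 and 9. Shares of all genes, here and below, are edgeR's with all libraries at the adjusted threshold. Counts at an unadjusted p, by other tools or with a library left out are given without such a share.

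Trav15-2-dv6-2, which the delta chain uses as dv6-2, had 0.0469, 1.52 and 0.0154 CPM in tumor CD4 LCL161 against 15.7, 14.1 and 14 CPM in tumor CD8 LCL161. With vehicle it had 1.92, 0.118 and 0.161 CPM in tumor CD4 against 11.3, 9.53 and 16.7 CPM in tumor CD8. In the spleen it had 0.0457, 0.0274 and 0.445 CPM in CD4 LCL161 against 7.53, 9.62 and 14.4 CPM in CD8 LCL161, and 0.962, 0.347 and 1.1 CPM in CD4 vehicle against 6.41, 6.14 and 9.09 CPM in CD8 vehicle. Every CD4 library lay below every CD8 library in all 4 comparisons. Its log2 fold changes (CD4 over CD8) were -4.87 ± 1.05 (SE) in tumor LCL161 (edgeR adjusted p = 0.0163), -4.10 ± 0.99 in tumor vehicle (edgeR adjusted p = 0.0236), -5.87 ± 1.14 in spleen LCL161 (edgeR adjusted p = 0.00161) and -3.15 ± 0.96 in spleen vehicle (edgeR adjusted p = 0.0405). In spleen vehicle, leaving out any 1 of the 6 libraries ended the call (adjusted p up to 0.122). Calls in the tumor were also lost without tumor CD4 LCL161 replicate 1 or 3, and, with vehicle, without tumor CD4 replicate 2 or 3 or tumor CD8 replicate 1 or 3 (adjusted p up to 0.084).

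Trav17, whose symbol carries no dv, had 0 counts in all 6 tumor CD4 libraries, 1 count in spleen CD4 LCL161 (replicate 2) and 0 in the 3 spleen CD4 vehicle libraries. In the CD8 libraries it had 21, 32 and 2 counts in tumor LCL161, 27, 4 and 39 in tumor vehicle, 19, 24 and 13 in spleen LCL161 and 22, 24.3 and 25 in spleen vehicle. Against a floor of 3 counts per library it was at least 7.73-fold lower in CD4 than in CD8 in tumor LCL161 (edgeR adjusted p = 0.0221), at least 7.35-fold lower in tumor vehicle (edgeR adjusted p = 0.0173) and at least 7.22-fold lower in spleen vehicle (edgeR adjusted p = 0.00785). In spleen LCL161 the ratio of CD8 to CD4 was 65.2 (interval of the count ratio 11.2 to 2621, counting error only), with an edgeR adjusted p of 0.0104. That ratio rests on 1 CD4 count and is not on the scale of the bounds, so it does not show a larger difference than they do. Both spleen calls were kept with any 1 library left out. The alternative tools, scalings, filters and designs kept the spleen LCL161 call in 6 of 7 fits and the spleen vehicle call in 7 of 7. In tumor LCL161 the call was lost without any 1 of the CD4 libraries or CD8 replicate 2, and in tumor vehicle without CD8 replicate 1 or 3.

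Trav21-dv12 had 0 counts in all 6 tumor CD4 and all 3 spleen CD4 LCL161 libraries, and 3, 0 and 0 counts in spleen CD4 vehicle. In CD8 it had 1, 1 and 3 counts in tumor LCL161, 14, 4 and 15 in tumor vehicle, 14, 16 and 13 in spleen LCL161 and 16, 8 and 20 in spleen vehicle. It was at least 3.45-fold lower in CD4 in tumor vehicle (edgeR adjusted p = 0.0203) and at least 5.6-fold lower in spleen LCL161 (edgeR adjusted p = 0.00333). In spleen vehicle the ratio of CD8 to CD4 was 13.3 (interval 4.28 to 67.2, counting error only), with an edgeR adjusted p of 0.0341. Only the spleen LCL161 call was kept with any 1 library left out. Each of the other two was lost without any of 4 of its 6 libraries (adjusted p up to 0.109).

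The Trav7-4 set (Trav7-4, Trav7d-4 and Trav7n-4 together) had 789.9, 174 and 174 CPM in spleen CD4 LCL161 and 116, 0.249 and 68.4 CPM in spleen CD4 vehicle. It had 7.2, 22.9 and 14.7 CPM in tumor CD4 LCL161 and 4.29, 0.644 and 0.262 CPM in tumor CD4 vehicle, and at most 0.133 CPM in any CD8 library. The lowest spleen CD4 LCL161 library thus lay above the highest of all other groups, while spleen CD4 vehicle replicate 2 lay below all 6 tumor CD4 libraries. Trav7-4 alone was at least 1582-fold higher in CD4 than in CD8 in spleen LCL161 (edgeR adjusted p = 0.000692). In spleen vehicle the ratio was 2603 (interval 467 to 102842, counting error only), with an edgeR adjusted p of 0.00453, although spleen CD4 vehicle replicate 2, at 0.00991 CPM, lay within the CD8 libraries. The bound stands against 0 CD8 counts after rounding and the ratio against 1, so they do not rank the treatments. Both calls were kept with any 1 library left out. The alternative tools, scalings, filters and designs kept the Trav7-4 call in 7 of 8 fits for spleen LCL161 and 6 of 7 for spleen vehicle.

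Traj42 had 106, 0.614 and 19.4 CPM in spleen CD4 LCL161 and 15.2, 9.14 and 11.9 CPM in spleen CD4 vehicle, with 0 counts in all 6 spleen CD8 libraries. It was at least 277-fold higher in CD4 in spleen LCL161 (edgeR adjusted p = 0.0038) and at least 87.9-fold higher in spleen vehicle (edgeR adjusted p = 0.0135). The first call was kept with any 1 library left out, and the second was lost without spleen CD8 vehicle replicate 1 (adjusted p = 0.0529). The alternative tools, scalings, filters and designs kept the first in 6 of 8 fits and the second in 8 of 8. In the tumor, Traj42 had 0.939, 0.0278 and 0.0931 CPM in CD4 LCL161 and 0.386, 1.3 and 12.2 CPM in CD4 vehicle, and at most 1 count in any CD8 library. It was called in neither tumor comparison.

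**Figure D5:**
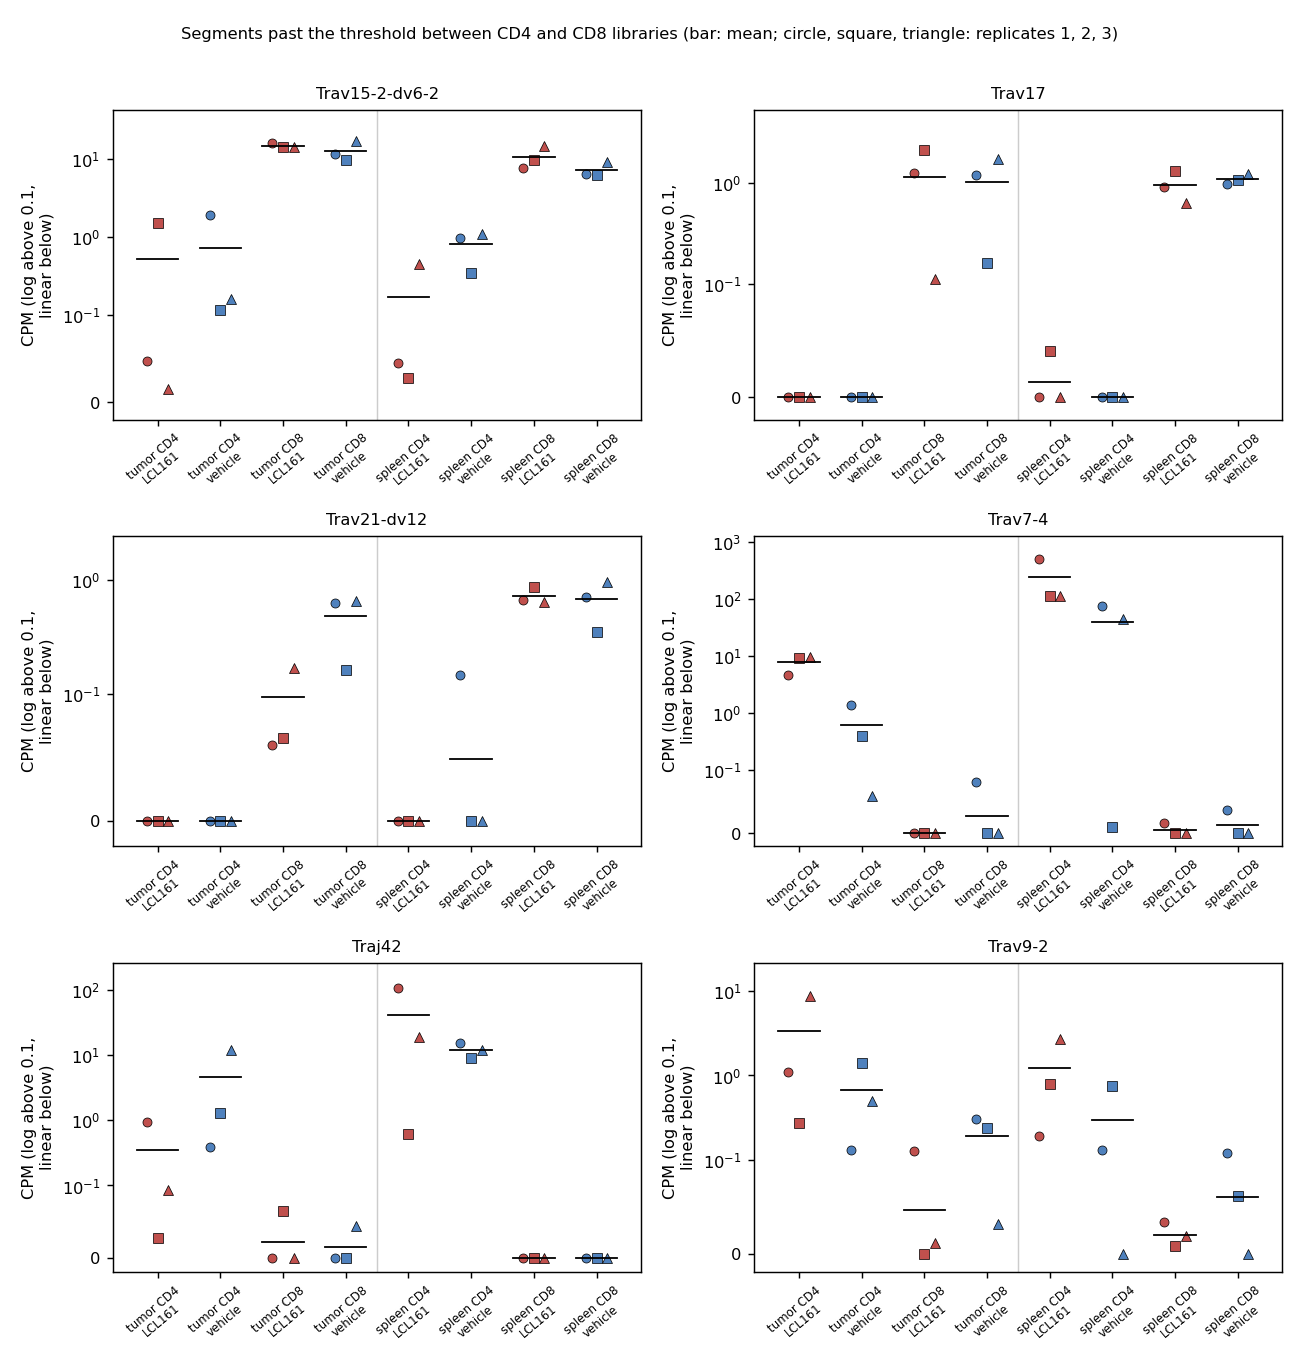
CPM per library of 6 segments called between CD4 and CD8 libraries, on an axis that is logarithmic above 0.1 CPM and linear below; symbols are replicates 1, 2 and 3, black bars are group means, red is LCL161 and blue is vehicle. Trav15-2-dv6-2 and Trav17 are lower in CD4 than in CD8 in both tissues, and Trav7-4 and Traj42 reach 500.4 and 106 CPM in spleen CD4 LCL161.

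Other segments called higher in CD4 were mostly carried by 1 library. Trav3-3 had 98.6 CPM in spleen CD4 vehicle replicate 2 and at most 1.53 CPM in the other two, and its call (edgeR adjusted p = 0.0224) gave way to an adjusted p of up to 0.287 when libraries were left out. Trav9d-3 had 0.0292, 1.07 and 21.3 CPM in spleen CD4 LCL161 against at most 0.0765 CPM in spleen CD8 LCL161 (edgeR adjusted p = 0.0382, up to 0.312 with a library left out). Trav4-4-dv10 belongs to the only dv set called higher in CD4 by edgeR in the 4 comparisons. It had 66.5, 38.2 and 2.84 CPM in tumor CD4 LCL161 against 0.342, 0.316 and 0.0982 CPM in tumor CD8 LCL161 (log2 fold change 7.06 ± 1.66 (SE), edgeR adjusted p = 0.026, up to 0.115 with a library left out). In tumor vehicle, the Trav5-4 copies were lower in CD4. Trav5-4 had 0 counts in all 3 tumor CD4 vehicle libraries against 456, 16.9 and 57 counts in the 3 tumor CD8 vehicle libraries, at least 56.3-fold lower (edgeR adjusted p = 0.0136). Replicate 1 of tumor CD8 vehicle held most of these counts. Without it the fitted log2 fold change was -8.06, against -10.35 with all libraries, and the call was lost (edgeR adjusted p = 0.0551). Without that library no segment was called between CD4 and CD8 in tumor vehicle, against 9 with it.

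Further segments were lower in CD4 in the spleen. Trav3-4 had 0, 0.00818 and 0 CPM in spleen CD4 LCL161 against 1.88, 1.64 and 2.06 CPM in spleen CD8 LCL161, at least 14.3-fold lower (edgeR adjusted p = 0.000896). Trav13-2 had 0 counts in all 3 spleen CD4 LCL161 libraries against 0.606, 1.15 and 0.903 CPM in spleen CD8 LCL161, at least 6.8-fold lower (edgeR adjusted p = 0.0115). With its copies, the Trav13-2 set had 0.046, 0.369 and 0 CPM against 2.06, 2.63 and 3.605 CPM. With vehicle the set overlapped, at 4.09, 0.05 and 1.03 CPM in spleen CD4 and 1.22, 3.35 and 1.41 CPM in spleen CD8. Trav13-4-dv7 had 0, 0.176 and 0 CPM in spleen CD4 LCL161 against 2.04, 2.74 and 3.41 CPM in spleen CD8 LCL161 (log2 fold change -5.44 ± 1.37 (SE), edgeR adjusted p = 0.0105). These 3 calls were kept with any 1 library left out, and none of the 3 groups of CD4 libraries overlapped its CD8 libraries. The alternative tools, scalings, filters and designs kept Trav3-4 in 7 of 7 fits, and Trav13-2 and Trav13-4-dv7 in 6 of 7 each. Other calls of these and related sets were less stable. Trav13d-4, a copy in the set of Trav13-4-dv7, was called lower in CD4 in spleen LCL161 (edgeR adjusted p = 0.0256) and spleen vehicle (edgeR adjusted p = 0.0456), and the call was kept in 3 and 0 of the 6 fits with a library left out. Trav5d-4 and Trav5n-4 were called lower in spleen vehicle (edgeR adjusted p = 0.0371 for both) and kept the call in 1 of 6 such fits. Trav3-4 was also called lower in tumor vehicle (edgeR adjusted p = 0.0338) and kept the call in 1 of 6. Traj37 went the other way and had 12.9, 2.53 and 0 CPM in spleen CD4 vehicle against 0 counts in spleen CD8 vehicle, at least 37.5-fold higher (edgeR adjusted p = 0.0285), and the call was lost without spleen CD4 vehicle replicate 1 or any 1 of the spleen CD8 vehicle libraries (adjusted p up to 0.0939).

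Other receptor genes were read beside these. All 5 delta variable segments (Trdv) were tested, and 4, 5, 5 and 3 of them were lower in CD4 in tumor LCL161, tumor vehicle, spleen LCL161 and spleen vehicle. Of the 4 gamma delta constant genes, 2, 0, 4 and 0 were lower in CD4 in the same order. Of the 3 alpha beta constant genes, 1, 1, 2 and 3 were higher in CD4, and none was lower. Of 8 gamma delta T cell markers, 3, 2, 7 and 2 were lower in CD4. They summed to 169 to 782 CPM in tumor CD4 LCL161 against 3295 to 3774 CPM in tumor CD8 LCL161, and to 249 to 2994 CPM in tumor CD4 vehicle against 3144 to 3642 CPM in tumor CD8 vehicle. In the spleen they summed to 78.9 to 194 CPM in CD4 LCL161 against 2130 to 2943 CPM in CD8 LCL161, and to 327 to 1768 CPM in CD4 vehicle against 1456 to 1584 CPM in CD8 vehicle. Conventional dendritic cell markers differed as well, with 1, 1, 3 and 6 of 8 lower in CD4. They summed to 82.8 to 111 CPM in tumor CD4 LCL161 against 303 to 398 CPM in tumor CD8 LCL161, and to 113 to 323 CPM in spleen CD4 vehicle against 1756 to 1964 CPM in spleen CD8 vehicle. The part of these other cells in the differences between segments was not tested.

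Tumor libraries were compared with spleen libraries of the same population and treatment. In CD4 cells copies of the Trav7-4 set were lower in the tumor under both treatments. In CD4 LCL161, 4 segments were higher and 7 lower in the tumor, where 21.3% of all genes were called (10.4% higher, 11% lower). In CD4 vehicle 0 were higher and 2 lower, where 16.4% of all genes were called (9.61% higher, 6.78% lower). One library moved that count, which was 12 without spleen CD4 vehicle replicate 2, and DESeq2 called 4 and limma voom 0. In CD8 LCL161 edgeR called 0 segments (8.77% of all genes, with 1 segment at an unadjusted p under 0.05, 1 called by limma voom and 0 by DESeq2). In CD8 vehicle 2 copies of 1 set were higher in the tumor and 0 lower, where 14.8% of all genes were called (7.95% higher, 6.86% lower). With 79 segments tested, the share of segments called was below the share of all genes called in each of the 4 comparisons.

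Trav7-4 had 4.52, 9.1 and 9.56 CPM in tumor CD4 LCL161 against 500.4, 110.4 and 110.5 CPM in spleen CD4 LCL161, with no overlap. Its log2 fold change (tumor over spleen) was -4.96 ± 1.25 (SE, edgeR adjusted p = 0.0119), and the call was lost without tumor or spleen CD4 LCL161 replicate 1 (adjusted p up to 0.0543). With vehicle, Trav7-4 had 1.37, 0.39 and 0.0586 CPM in tumor CD4 against 74.8, 0.00991 and 43.5 CPM in spleen CD4, which overlapped. The log2 fold change was -6.07 ± 1.44 (SE, edgeR adjusted p = 0.0106), and the call was kept with any 1 library left out. The alternative tools, scalings, filters and designs kept this vehicle call in 6 of 8 fits and the LCL161 call in 8 of 8. Trav7n-4, the other copy called with vehicle (edgeR adjusted p = 0.0379), kept its call in 1 of 6 fits with a library left out (adjusted p up to 0.119). Traj42 was lower in tumor than in spleen CD4 LCL161 (log2 fold change -6.87 ± 1.67 (SE), edgeR adjusted p = 0.00942), although spleen replicate 2, at 0.614 CPM, lay below tumor replicate 1, at 0.939 CPM. Its call was kept in 6 of 8 alternative fits.

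Trav14d-3-dv8 and Trav14n-3 were called lower in tumor CD4 LCL161 on the strength of 1 spleen library. Trav14d-3-dv8 had 0.121, 6.98 and 0.0848 CPM in tumor CD4 LCL161 against 0.116, 244 and 0.0438 CPM in spleen CD4 LCL161. Without spleen CD4 LCL161 replicate 2 the log2 fold change (tumor over spleen) turned to 4.62 for Trav14d-3-dv8 (edgeR adjusted p = 0.0778) and to 5.68 for Trav14n-3 (edgeR adjusted p = 0.0293), against -5.12 and -4.44 with all libraries. The Trav3-3 copies were higher in the tumor through 1 tumor library. Trav3-3 had 1.74, 79.8 and 1.86 CPM in tumor CD4 LCL161 against 0.152, 0.39 and 0.763 CPM in spleen CD4 LCL161 (edgeR adjusted p = 0.0382, up to 0.438 with a library left out). Trav5d-4 had 15.9, 0.613 and 1.81 CPM in tumor CD8 vehicle against 1.3, 0.198 and 0.388 CPM in spleen CD8 vehicle (edgeR adjusted p = 0.0481), and the call was lost without tumor CD8 vehicle replicate 1 or spleen CD8 vehicle replicate 2 or 3 (adjusted p up to 0.634). In the CD4 comparisons all 8 B cell markers were lower and 6 (LCL161) and 7 (vehicle) of 9 macrophage and monocyte markers higher in the tumor, with 1 of the 9 (Ly6c2) lower with vehicle. Of 8 gamma delta T cell markers, 4 were higher in the tumor with LCL161 (Tcrg-C2, Trgv2, Sox13 and Cd163l1) and 0 lower, while with vehicle 0 were higher and 1 lower (Blk). Of 7 tested pancreatic acinar and ductal markers, 4 (LCL161) and 5 (vehicle) were higher and 2 and 1 lower in the tumor. The part of these cells in the differences between segments was not tested.

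LCL161 was compared with vehicle within each population, which is the question of the study. No Trav or Traj segment was called by edgeR in any of the 4 populations. In tumor CD4 0 of 79 segments were called (0.322% of all genes), with 13 at an unadjusted p under 0.05 and with 2 called by DESeq2 and 0 by limma voom. In tumor CD8 0 were called (0.248% of all genes), with 5 at an unadjusted p under 0.05 and with 1 called by DESeq2 and 0 by limma voom. In spleen CD4 0 were called (0.431% of all genes), with 23 at an unadjusted p under 0.05 and with 6 called by DESeq2 and 0 by limma voom. In spleen CD8 0 were called (8.28% of all genes), with 1 at an unadjusted p under 0.05 and with 0 called by DESeq2 and 3 by limma voom. The shares of all genes are edgeR's at the adjusted threshold, and none is given for DESeq2, limma voom or fits with a library left out. None is given at an unadjusted p either, so the unadjusted counts cannot be set against these shares. They also count copies of 1 set separately. A p that misses the threshold does not show that the segments were alike. One library decided the count in spleen CD4. Without spleen CD4 LCL161 replicate 3, edgeR called 4 segments higher with LCL161, Trav14d-3-dv8 (adjusted p = 0.0426), Trav14n-3 (adjusted p = 0.0277), Trav6d-7 and Trav6n-7 (adjusted p = 0.0326 for both), and without any other spleen CD4 library it called 0.

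The segments that DESeq2 called in spleen CD4 were Trav14d-3-dv8 and Trav14n-3 (higher) and Trav15-1-dv6-1, Trav3-3, Trav3d-3 and Trav3n-3 (lower with LCL161). Trav14d-3-dv8 had 0.116, 244 and 0.0438 CPM with LCL161 against 0.165, 0.71 and 0.96 CPM with vehicle, so that 1 library held nearly all of it. Trav3-3 had 0.152, 0.39 and 0.763 CPM with LCL161 against 0, 98.6 and 1.53 CPM with vehicle, again through 1 library. Trav15-1-dv6-1 had 1.36, 7.24 and 0.854 CPM with LCL161 against 31.9, 14.9 and 48.4 CPM with vehicle, with no overlap. In tumor CD4 the segments called by DESeq2 were Trav16d-dv11 (higher) and Trav7-3 (lower), and in tumor CD8 it was Trav3-3 (higher). Those that limma voom called in spleen CD8 were Trav15d-2-dv6d-2, Trav15n-2 and Trav3-4, with log2 fold changes of 1.13, 1.13 and 1.32 (limma adjusted p = 0.00754, 0.00755 and 0.0301). Markers of other cells differed in level in the same comparison. Conventional dendritic cell markers summed to 352 to 631 CPM in spleen CD8 LCL161 against 1756 to 1964 CPM in spleen CD8 vehicle, with 3 of 8 called lower by edgeR. The 4 gamma delta constant genes summed to 1794 to 2568 CPM in spleen CD8 LCL161 against 1209 to 1280 CPM in spleen CD8 vehicle, with 0 called. Their part in the limma calls was not tested.

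Trdc was low in the spleen CD4 libraries in which Trav15-1-dv6-1 was low. It stood at 7.99, 39.4 and 15 CPM in spleen CD4 LCL161 against 279, 65.4 and 571 CPM in spleen CD4 vehicle (log2 fold change -3.87 ± 1.07 (SE), edgeR adjusted p = 0.106), and of 8 gamma delta T cell markers 0 rose and 2 fell (Tcrg-C2 and Trgv2). Those markers summed to 78.9 to 194 CPM with LCL161 and 327 to 1768 CPM with vehicle, and their part in the level of Trav15-1-dv6-1 was not tested. Trac had 1082, 758 and 353 CPM in spleen CD4 LCL161 against 293, 573 and 119 CPM in spleen CD4 vehicle, which overlapped (log2 fold change 1.15 ± 0.59 (SE), edgeR adjusted p = 0.344). In tumor CD4, Trac had 826, 553 and 363 CPM with LCL161 against 63.2, 404 and 548 CPM with vehicle (log2 fold change 0.78 ± 0.59 (SE), edgeR adjusted p = 0.594).

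Whether these effects differed between tissues or populations was tested as 6 differences of the comparisons, chosen after the data were seen. No segment passed edgeR's test in any of them, with 8 at an unadjusted p under 0.05 for the LCL161 effect in CD4, tumor minus spleen, 0 for that in CD8, 3 for the LCL161 effect in the tumor, CD4 minus CD8, 12 for that in the spleen, 6 for the population difference with LCL161, tumor minus spleen, and 4 for that with vehicle. Among all genes 0.00991%, 0.0248%, 0%, 0.292%, 3.29% and 3.29% were called at the adjusted threshold in the same order. Segments called in one tissue or treatment and not in another are therefore not shown to differ between them.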

How the data were processed

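The deposited table holds expected counts per gene, made by the authors and not normalized, for 24 libraries (52.7% of nonzero values are not whole). Per the submitters' processing notes, cutadapt, STAR 2.7.3a and GRCm38 were used. For the counting tool, its annotation, its treatment of reads shared by copies and its use of strand: not given in the sources used here.

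The members and lists were chosen with earlier results of these data known. Expected counts were rounded, genes were filtered with filterByExpr (minimum count 10), and 12 comparisons were fitted on all 24 libraries in 8 groups with edgeR 4.0.16 (TMM factors 0.94 to 1.05, quasi-likelihood test, 16 residual degrees of freedom) in R 4.3.3, with p-values adjusted by Benjamini and Hochberg over all 20174 genes within a comparison. Replicates differed by more than sampling noise (chi-square per gene 13.03 to 134.85), so none was counted as a duplicate. CPM used the unrounded counts and TMM-scaled totals. Sums, shares, overlaps and thinned numbers are descriptions with no test. Segments to be named were the 10 Trav and 10 Traj with the highest mean CPM, those called and the leading ones. The invariant receptor segments and the dv segments were added. Those that belong to a described set are given with it, and not all of the others are named. Annotation and sequences are GENCODE M21. Alternatives were DESeq2 1.42.0, limma 3.58.1 voom with sample weights, RLE or no scaling, no filter or 5 CPM in 3 libraries, a replicate block, only the 6 libraries compared, and each library left out. The 6 differences between comparisons were added after the data were seen. Fits were tested on simulated data. Figures were drawn with matplotlib 3.10.9. Numbers were taken to pair libraries where every pair's correlation of deviations was over 0.1. Of the 12 comparisons, tumor against spleen in CD8 LCL161 met this (0.112 to 0.166). No segment was called there with or without the block. The block joined equal replicate numbers over all 24 libraries and did not model these pairs alone, so the unchanged count does not show that pairing was accounted for.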

Additional observations from a re-analysis of the deposited data

How the results depend on the processing

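Of the 66 calls of a segment in a comparison, RLE scaling and no scaling each kept 65, no filter and the replicate block 51 each, and limma voom 23. DESeq2 kept 64 of 65 and a filter of 5 CPM in 3 libraries 40 of 40. Fitting only the 6 libraries compared kept 26 of 42. Counts that moved by over 1.5 times follow, with no share of all genes beside them. DESeq2 called 6, 2 and 1 segments for LCL161 in spleen CD4, tumor CD4 and tumor CD8, 28, 31, 24 and 31 for CD4 against CD8 in spleen LCL161, spleen vehicle, tumor LCL161 and tumor vehicle, and 4 for tumor against spleen in CD4 vehicle. Limma voom called 3 for LCL161 in spleen CD8, 10, 9, 4 and 3 for CD4 against CD8 in the same order, and 5, 0, 1 and 5 for tumor against spleen in CD4 LCL161, CD4 vehicle, CD8 LCL161 and CD8 vehicle. With the 6 libraries alone there were 1 for LCL161 in spleen CD8, 2 for CD4 against CD8 in tumor vehicle, and 3, 0, 1 and 12 for tumor against spleen in the same order. With 5 CPM in 3 libraries there were 5 for CD4 against CD8 in tumor vehicle, 6 for tumor against spleen in CD4 LCL161 and 0 in CD8 vehicle, and with no filter 0 in CD8 vehicle. The cause was not tested.

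Leaving out 1 library gave 13 to 24, 3 to 14, 2 to 14 and 0 to 9 calls for CD4 against CD8 in spleen LCL161, spleen vehicle, tumor LCL161 and tumor vehicle. It gave 0 to 4 for LCL161 in spleen CD4 and 0 in the other 3 populations, and 3 to 12, 1 to 12, 0 to 0 and 0 to 2 for tumor against spleen in CD4 LCL161, CD4 vehicle, CD8 LCL161 and CD8 vehicle. For tumor against spleen in CD4 LCL161, the log2 fold change reversed without spleen CD4 LCL161 replicate 2, to 4.62 for Trav14d-3-dv8 and 5.68 for Trav14n-3, the highest of the values with 1 library left out. The lowest, -9.40 and -5.15, came without tumor CD4 LCL161 replicate 2.

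Apart from CD8 LCL161 tumor against spleen, the libraries share a replicate number and were not shown to be paired (correlations -0.168 to 0.112). Tumor CD4 vehicle replicate 3 and spleen CD4 vehicle replicate 2, whose numbers differ, correlated at 0.271. That is above the highest value of any pair of equal number (0.166), and the replicate block does not join these 2 libraries. With the replicate block, 0 segments were called for LCL161 in any population, 14, 12, 8 and 11 for CD4 against CD8 in the order above, and 8, 2, 0 and 2 for tumor against spleen. Libraries correlated best with their own number in all 3 pairs for CD4 against CD8 in spleen vehicle and for tumor against spleen in CD8 LCL161 and CD8 vehicle. With 3 libraries a group and 0.5 to 15 Traj counts in a CD8 library, differences among CD8 libraries in Traj use were not detectable at this depth.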
